A study of Mus musculus with 4 samples.

Results

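The mitochondrial ribosomal protein genes were taken as every row of the deposited expression table whose symbol begins with Mrpl or Mrps and a digit, apart from rows marked as repeated loci. This gave 76 of the 17454 rows, 47 under Mrpl and 29 under Mrps. No such row was marked as a repeated locus, so none was left out for that reason. Their RNA was measured in 4 sequencing libraries of double negative T cells from the liver of adult C57BL/6 mice, 2 libraries from mice fed a methionine-choline deficient diet and 2 from mice fed a normal diet. The cells had been sorted by flow cytometry as living cells (7-AAD negative) with CD45 and CD3 on their surface and without NK1.1, CD4 or CD8. The deficient diet, which lacks the precursors of phosphatidylcholine, is a common way of producing fatty liver with inflammation in mice. The labels used here do not give the feeding time or the number of animals behind a library, and a p-value here covers no more than library-to-library spread, which may be technical. The comparison asked whether the diet changed the RNA levels of the mitochondrial translation machinery in these cells.

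Mitochondria carry ribosomes of their own, which descend from those of bacteria and translate the few messenger RNAs of mitochondrial DNA, all of them for membrane subunits of the respiratory chain and ATP synthase. The ribosomal RNAs come from mitochondrial DNA, whereas all the ribosomal proteins are encoded in the nucleus, made in the cytosol and imported. Mammalian mitoribosomes have a small subunit, which reads the messenger RNA, and a large subunit, which joins the amino acids. Both hold proteins with a bacterial counterpart and proteins found only in mitochondria. Activated T cells are known to enlarge their mitochondria and to depend on mitochondrial translation for cytokine production and killing.

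The symbols do not follow the subunits exactly. By the structures of the mammalian ribosome, 49 members belong to the large subunit, among them Mrps30 and Mrps18a, and 26 to the small subunit. Mrps36 is no ribosomal protein but a part of the 2-oxoglutarate dehydrogenase complex. Of the 76 members, 45 are counterparts of bacterial ribosomal proteins in the naming based on structure, and 31 are not.

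Upstream sequences of a few members are shown as examples of where these motifs lie, with Mrps5 as the member of the largest positive difference and Mrps11 for the start region it shares with another member. Promoter windows of RefSeq (build GRCm38.p6, from 250 bases before the transcript start to 50 bases after it) could be matched by symbol for 67 of the 76 members. They were searched on both strands for 4 motifs. These were the palindromic NRF1 motif with 1 free base, the ETS motif CCGGAAGT, bound by proteins such as GABPA, the YY1 motif around ATGGCG, and the E-box CACGTG, bound by MYC and other factors. No motif contains another, and overlap between matches was not examined. NRF1, GABPA and YY1 are known for acting on nuclear genes of mitochondrial proteins. The NRF1 motif was found in 12 of the 67 members (17.9%), against 12.1% of the 7930 genes that were tested between diets and matched a window by symbol, and 5.19% of all 27025 genes with one. The ETS motif was found in 12 members (17.9%), against 9.86% of tested genes and 4.31% of all genes, and the YY1 motif in 7 members (10.4%), against 4.54% and 1.77%. At least 1 of these 3 was present in 28 members (41.8%), against 24.4% of tested genes and 10.4% of all genes. The E-box, with 5 members (7.46%) against 12.1% of tested genes and 8.09% of all genes, had the lower share among members. These shares are a description with no test. A match describes the letters and is not a measured binding site. Capitals mark the motif in the sequences below, which run 5′ to 3′ on the strand of the gene.
Mrps9, chr1:42851218-42851247, plus strand: tgggaggtctGCGCCTGCGCagtctccagg
Mrpl12, chr11:120484517-120484636, plus strand: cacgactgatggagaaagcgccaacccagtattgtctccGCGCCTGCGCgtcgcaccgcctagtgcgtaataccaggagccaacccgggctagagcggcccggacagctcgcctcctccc
Mrps21, chr3:95871515-95871634, minus strand: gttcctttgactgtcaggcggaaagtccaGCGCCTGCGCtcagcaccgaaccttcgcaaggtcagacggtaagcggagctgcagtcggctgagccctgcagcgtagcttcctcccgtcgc
Mrpl18, chr17:12916222-12916341, minus strand: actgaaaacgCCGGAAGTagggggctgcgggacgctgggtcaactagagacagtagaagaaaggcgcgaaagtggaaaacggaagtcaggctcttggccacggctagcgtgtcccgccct
Mrps18a, chr17:46111005-46111034, plus strand: ggtgcgttccAAGATGGCGGCcctcagggc
Mrps5, chr2:127587306-127587425, plus strand: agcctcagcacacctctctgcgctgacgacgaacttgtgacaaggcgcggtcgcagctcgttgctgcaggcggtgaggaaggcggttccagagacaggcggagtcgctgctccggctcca
Mrps11, chr7:78783089-78783130, plus strand: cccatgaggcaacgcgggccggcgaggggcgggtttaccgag
The Mrps9, Mrpl12 and Mrps21 sequences each hold the NRF1 motif, printed as its reverse complement. In Mrpl12 and Mrps21 it begins 81 and 91 bases before the transcript start, and in Mrps9 it crosses the start. Mrpl18 holds an ETS motif beginning 240 bases before the start, and Mrps18a a YY1 motif just after it. Mrps5, the member with the largest positive difference between diets, held none of the 4 motifs in its window, and its last 120 bases before the start are shown. The Mrps11 sequence is the whole stretch of 42 bases between its start and that of Mrpl46, which is transcribed the other way. Mrps11 does hold a YY1 motif, which begins 110 bases before its start and so lies outside the printed stretch. The 27 tested members with an NRF1, ETS or YY1 motif had log2 changes from -0.64 to 0.43 with a median of -0.07, and the 35 without one ran from -0.84 to 0.91, so the ranges overlap. The difference was not tested.

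Values were taken as FPKM, a level scaled for transcript length and for library size, although neither table nor labels name the unit. The 76 members together had 1790 and 1917 FPKM on the deficient diet, against 1730 and 1734 FPKM on the normal diet. These sums are 0.479% and 0.499% of all FPKM on the deficient diet, against 0.444% and 0.469% on the normal diet. Both deficient diet sums lay above both normal diet sums, with a ratio of means of 1.07, and the difference of means was about as large as the gap between the deficient diet libraries. An exact permutation test of 2 against 2 libraries cannot give a two-sided p below 1 in 3, so no test is given for sums. Without Mrps5 and Mrps28, left out after their values were seen, the sums were 1589 and 1680 against 1614 and 1617 FPKM, and the diets overlapped. In bulk RNA of this kind, fewer cells of a type and less RNA per cell cannot be told apart.

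Large-subunit members summed to 1141 and 1174 FPKM on the deficient diet and 1103 and 1125 FPKM on the normal diet. Small-subunit members summed to 649.1 and 743.6 FPKM against 626.6 and 608.8 FPKM. The small subunit therefore held 0.569 and 0.634 of the large-subunit sum on the deficient diet, and 0.568 and 0.541 on the normal diet. The deficient diet values lay above the normal diet values in this ratio too, barely so between deficient diet replicate 1 and normal diet replicate 1. This order was seen with Mrps5 and Mrps28 included, both of the small subunit. It is therefore no result about the small subunit as a whole. Median log2 changes of tested members were -0.02 in the small subunit and -0.01 in the large subunit.

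**Figure D1:**
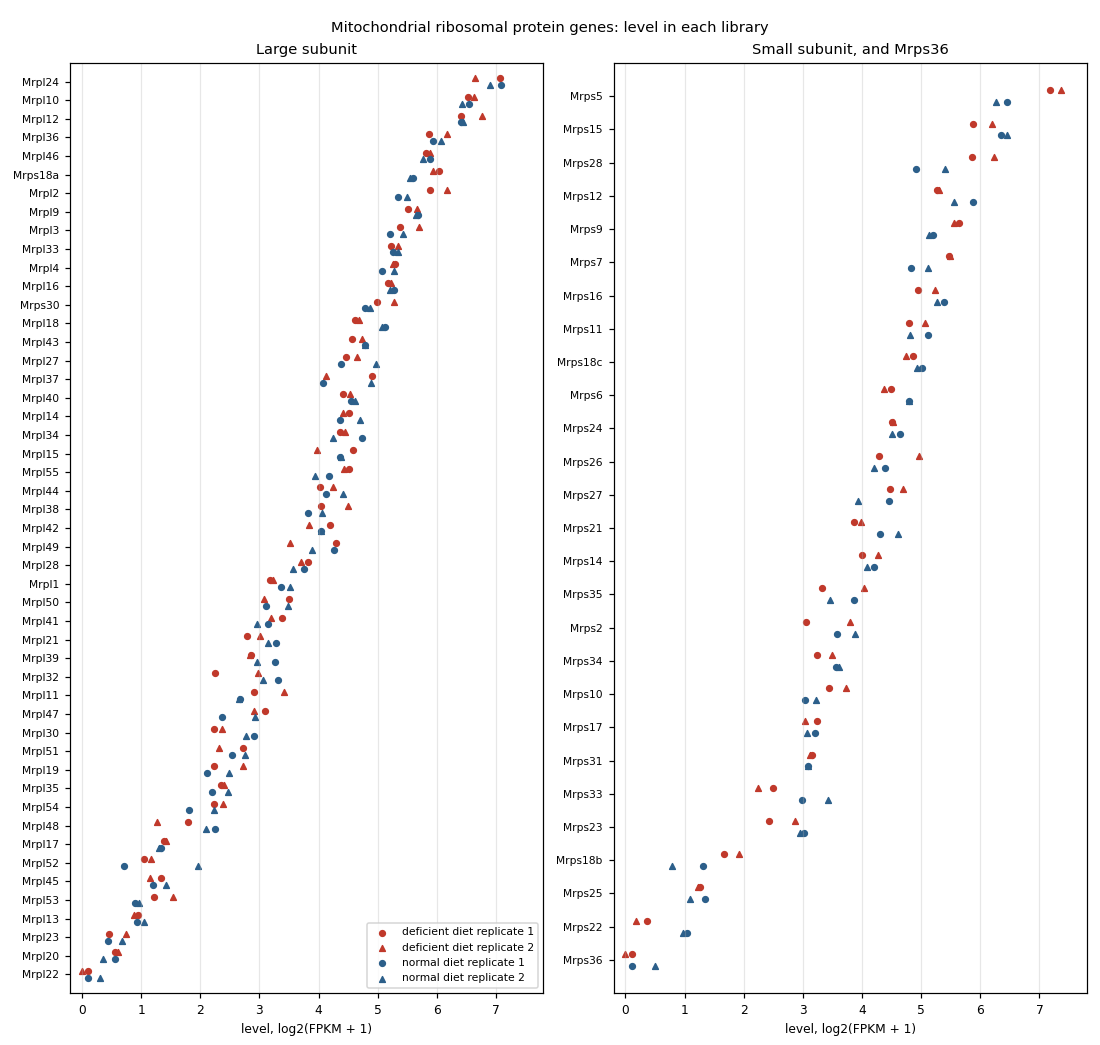
Level of each of the 76 members in each library, as log2(FPKM + 1), sorted by mean within large-subunit members (left panel) and the rest (right panel), with the deficient diet in red and the normal diet in blue and 1 point per library. Members range from listed near 0 (Mrpl22 and Mrps36) to above 90 FPKM (Mrpl24, Mrps5, Mrpl10), and the 4 points of most members lie close together compared with the distance between members.

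The proteins are present once or in few copies per ribosome, yet their transcripts spanned a wide range of FPKM. Member means over the 4 libraries ran from 0.0958 to 121.5 FPKM with a median of 16.6 FPKM, and 45 members reached 10 FPKM. The 5 highest held 27.6% of the summed FPKM. Mrpl24, a protein of the large subunit that in bacteria helps to start its assembly, had 133.9 and 98.7 FPKM in deficient diet libraries and 134.7 and 118.5 FPKM in normal diet libraries. Mrpl10, which anchors the stalk where translation factors bind, had 90.8 and 98.4 FPKM against 92.5 and 85.2 FPKM. Mrpl12, the stalk protein itself, also known for binding the mitochondrial RNA polymerase, had 84.1 and 107.3 FPKM against 83.5 and 86.4 FPKM. The diets overlapped for all 3. Over the 4 libraries the ranges of Mrpl10 and Mrpl12 overlapped, whereas every Mrpl24 value lay above every Mrpl10 value. The other 2 of the top 5, Mrps5 and Mrps15, did not overlap between diets and are described with the small subunit. Levels were ordered much alike in every library. Across the 70 tested members, Pearson's r of log2 levels was 0.978 between the deficient diet libraries, 0.978 between the normal diet libraries and 0.957 to 0.967 between diets. Across all 10423 tested genes the same r ran from 0.893 to 0.963. Points of each r share the library and its depth, and genes are not independent replicates.

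For the comparison of diets, limma was fitted to log2(FPKM + 1) of 10423 genes, those that reached 1 FPKM in 2 or more libraries. Of the 76 members 70 were tested and 6 were not. No member passed a Benjamini-Hochberg adjusted p of 0.05 in limma, where 286 genes (2.74%) passed among all tested, 1.22% higher and 1.53% lower on the deficient diet. A share of 0 of 70 is near that background and is not a result about the family. At an unadjusted p under 0.05 limma gave 9 of 70 members, against 22.8% of tested genes. Libraries of the diets did not overlap for 35 of 70 members, 17 with the deficient diet above and 18 with it below, against 56.2% of all tested genes (30.7% above and 25.5% below).

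Log2 changes of the tested members ran from -0.84 to 0.91, with a median of -0.02 beside 0.04 for all tested genes. The median of absolute changes was 0.22, beside 0.33 for all tested genes. No member reached an absolute change of 1, which 12.2% of tested genes did. Of the named members 4 did under another setting, Mrps18b at 1.16 with a pseudocount of 0.1, and Mrps5, Mrps28, Mrps33 and Mrps18b with a library left out. For 51 of 70 members the whole 95% interval of the log2 change lay within 1 of 0, against 48.4% of tested genes. Among the 45 members with a mean of at least 10 FPKM, 36 had such an interval (80%) and the median absolute change was 0.16. Of the 5193 tested genes at that level 63.0% had such an interval, their median absolute change was 0.32, and 11.9% reached an absolute change of 1. An interval within these bounds limits the change, and a missed threshold does not show that a member was the same in both diets.

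**Figure D2:**
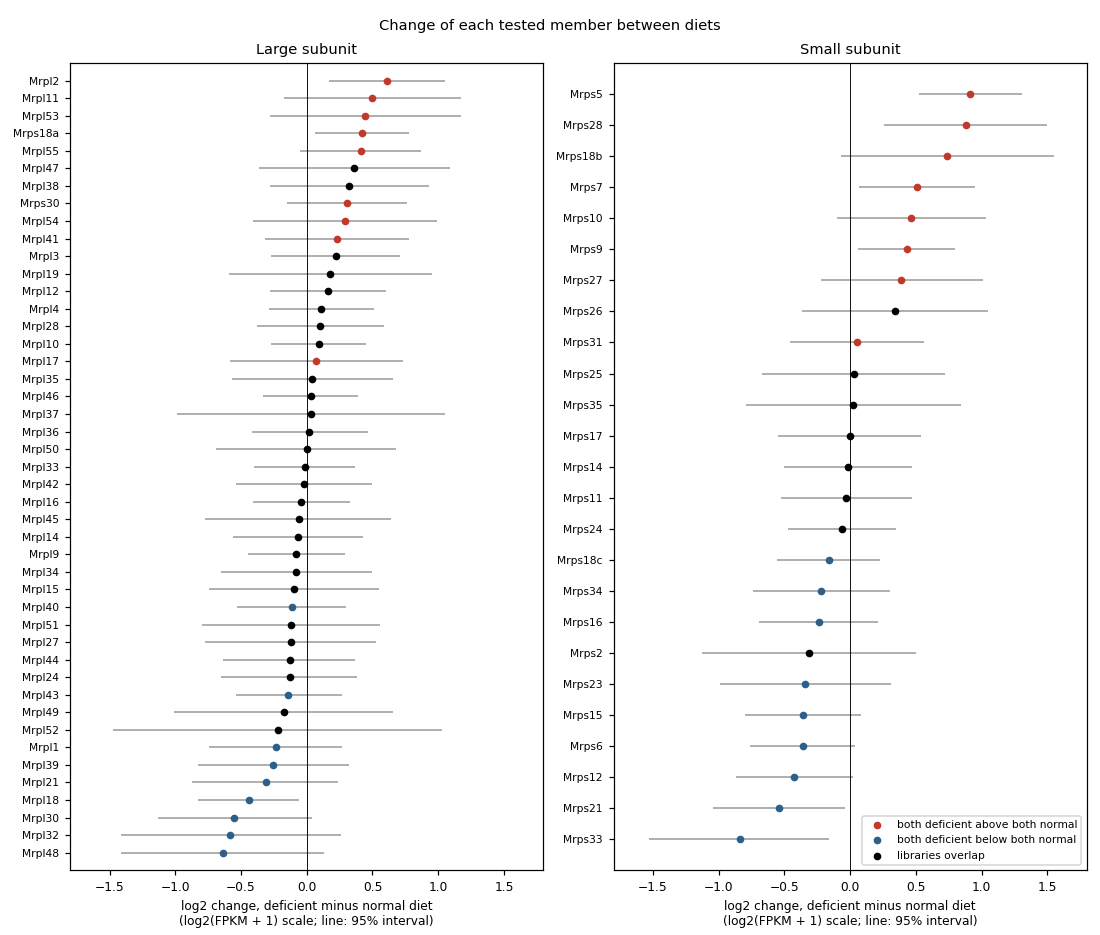
Log2 change (deficient minus normal diet, log2(FPKM + 1) scale) of each of the 70 tested members with its 95% interval from limma, in large-subunit (left) and small-subunit (right) members, coloured by whether the 2 deficient diet libraries lie above, below or among the 2 normal diet libraries. Changes run from -0.84 (Mrps33) to 0.91 (Mrps5), with members on both sides of 0 in both subunits.

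Small-subunit members held both ends of the range. Members named here and below for the size of their change were picked among those without overlap between diets. Absence of overlap is therefore no result about them. Mrps5, a protein at the entry of the messenger RNA channel whose counterpart in Caenorhabditis elegans is known for its effect on lifespan, had 144.3 and 163.8 FPKM on the deficient diet and 86.5 and 76.0 FPKM on the normal diet. Both deficient diet libraries lay well above both normal diet libraries, with means of 154.1 ± 13.8 and 81.3 ± 7.40 FPKM (SD, n = 2 per diet). The log2 change was 0.91 ± 0.15 (SE) with a 95% interval from 0.52 to 1.31 and an adjusted p in limma of 0.0547, just short of the threshold. Its change stayed between 0.82 and 1.01 with any 1 library left out (limma adjusted p from 0.113 to 0.283). It passed with a filter of 5 FPKM (adjusted p = 0.0469), with quantile normalization (0.0404) and with robust empirical Bayes (0.0449), the last chosen after seeing the data. Mrps28, the counterpart of bacterial S1, had 57.3 and 73.9 FPKM on the deficient diet, against 29.2 and 41.5 FPKM on the normal diet. Its libraries did not overlap either, and its log2 change of 0.88 ± 0.24 (SE) had a limma adjusted p of 0.124.

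Other small-subunit members with the deficient diet above were less far apart. Mrps7, which organises the head of the subunit, had 43.4 and 43.9 FPKM against 27.4 and 33.6 FPKM, and Mrps9, another protein of the head, 48.7 and 46.0 FPKM against 35.7 and 34.1 FPKM. The log2 changes were 0.51 for Mrps7 and 0.43 for Mrps9, with limma adjusted p of 0.170 and 0.169. Mrps10, also of the head, had 9.90 and 12.3 FPKM against 7.18 and 8.32 FPKM. The diets did not overlap in any of these 3 genes, and none passed.

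On the other side stood Mrps33, a protein without bacterial counterpart, at 4.62 and 3.71 FPKM on the deficient diet and 6.95 and 9.73 FPKM on the normal diet. Its log2 change was -0.84 ± 0.26, with an interval from -1.53 to -0.16 and a limma adjusted p of 0.155. Mrps21 had 13.5 and 14.8 FPKM against 18.8 and 23.5 FPKM, a log2 change of -0.54. Mrps12, the counterpart of the bacterial protein at the decoding centre that is altered in streptomycin resistance, had 37.4 and 38.6 FPKM against 57.6 and 45.9 FPKM, a log2 change of -0.43 with an interval from -0.87 to 0.02. Mrps15, the most abundant of these at 57.8 and 72.7 FPKM against 80.4 and 86.5 FPKM, had a log2 change of -0.36. Mrps6 had 21.5 and 19.8 FPKM against 26.8 and 26.7 FPKM, and Mrps23, which has no bacterial counterpart, 4.37 and 6.26 FPKM against 7.12 and 6.72 FPKM, with log2 changes of -0.36 and -0.34. Deficient diet libraries lay below normal diet libraries in each of the 6, and none passed.

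The 25 tested small-subunit members thus spread to both sides, 11 with a positive and 14 with a negative fitted change, around a median of -0.02. Libraries did not overlap for 17 of these 25 (68%, against 56.2% of all tested genes), and 6 had an unadjusted p under 0.05 in limma, a share near the 22.8% of all tested genes. The median absolute change was 0.34 in the small subunit and 0.14 in the large subunit, and the difference between subunits was not tested.

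The 3 members of the Mrps18 family descend from 1 bacterial protein, S18, and sit at different places in the ribosome. Mrps18a, which lies in the large subunit, had 65.0 and 60.3 FPKM on the deficient diet, against 47.5 and 45.9 FPKM on the normal diet, a log2 change of 0.42 (limma adjusted p = 0.173). Mrps18b, in the small subunit, had 2.16 and 2.78 FPKM against 1.48 and 0.729 FPKM, a log2 change of 0.74 at a low level, which was 1.16 with a pseudocount of 0.1 and 0.29 with one of 5. Mrps18c, which takes the place of the bacterial protein, had 28.1 and 25.9 FPKM against 31.3 and 29.3 FPKM, a log2 change of -0.16. Diets did not overlap for any of the 3, and Mrps18c lay on the other side from the other two.

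Of 45 tested large-subunit members 21 had a positive and 24 a negative fitted change, libraries did not overlap for 18 (40%, against 56.2% of all tested genes), and 3 had an unadjusted p under 0.05 in limma, where 22.8% of all tested genes did. Mrpl2, whose bacterial counterpart lies beside the peptidyl transferase centre, had 57.8 and 71.0 FPKM on the deficient diet and 39.5 and 44.0 FPKM on the normal diet. Its log2 change of 0.61 ± 0.17 was the largest positive one in this subunit, with an interval from 0.17 to 1.05 and a limma adjusted p of 0.133. Mrpl11, at the base of the stalk, had 6.55 and 9.66 FPKM against 5.36 and 5.32 FPKM, and Mrps30, a mitochondrial addition to this subunit, 30.7 and 37.8 FPKM against 26.5 and 28.3 FPKM. Mrpl41 had 9.47 and 8.13 FPKM against 7.89 and 6.78 FPKM, and Mrpl53 had 1.32 and 1.90 FPKM against 0.853 and 0.961 FPKM. For these 5 the deficient diet lay above without overlap and no gene passed, and Mrpl3 overlapped at 40.5 and 50.9 FPKM against 35.8 and 42.2 FPKM.

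At the lower end of the large subunit were Mrpl48, Mrpl32, Mrpl30 and Mrpl18. Mrpl18, which in bacteria binds the 5S ribosomal RNA, had 23.6 and 24.7 FPKM on the deficient diet, against 33.7 and 32.7 FPKM on the normal diet. The replicates of each diet were nearly equal, and the log2 change was -0.44 ± 0.15 (limma adjusted p = 0.173). Mrpl30 had 3.67 and 4.17 FPKM against 6.53 and 5.84 FPKM. Mrpl32 had 3.76 and 6.85 FPKM against 8.99 and 7.30 FPKM, and Mrpl48 had 2.48 and 1.41 FPKM against 3.76 and 3.26 FPKM. Diets did not overlap in these 4 genes, and log2 changes were -0.55, -0.58 and -0.64 for Mrpl30, Mrpl32 and Mrpl48, with limma adjusted p of 0.242, 0.360 and 0.289. At the flat end, Mrpl46 had 55.7 and 58.3 FPKM against 57.9 and 53.6 FPKM and an interval from -0.33 to 0.39.

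The 41 tested members with a bacterial counterpart had a median log2 change of -0.03, 17 positive and 24 negative, and the 29 without one had a median of 0.02, 15 positive and 14 negative. The difference between these classes was not tested.

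The 6 members left out of the test were listed at low values. Mrpl22 had 0.0779 and 0 FPKM on the deficient diet and 0.0765 and 0.229 FPKM on the normal diet, and Mrps36 had 0.0847 and 0 FPKM against 0.0829 and 0.408 FPKM. Mrpl20, Mrpl23 and Mrpl13 stood between 0.280 and 1.08 FPKM in all libraries and overlapped between diets, except that Mrpl20 at 0.479 and 0.522 FPKM lay above its normal diet values of 0.466 and 0.280 FPKM. Mrps22, a small-subunit protein whose loss causes mitochondrial disease in humans, had 0.295 and 0.135 FPKM on the deficient diet against 1.07 and 0.953 FPKM on the normal diet, without overlap. Values near 0 are given as listed.

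Low levels were set beside how much of each transcript is specific to its gene. For each member, all 36-base words of its protein-coding GENCODE vM21 transcripts were listed. Those found in no transcript of another gene, of any type and on either strand, were taken as specific. This is not known to be the annotation behind the deposited values. The 12 members under 2 FPKM had a median of 71.2% specific words, and the 64 others a median of 95%. Mrpl53 had none, all its words being shared with the annotated gene Gm42688. Mrps25 had 25.6%, most others being shared with Nr2c2, and Mrps18b had 41.4%, its words being shared mainly with the antisense gene Gm16279. Processed pseudogenes shared words with Mrpl23 (47.6% specific), Mrpl22 (59.7% specific) and Mrps36 (60.9%). On the other hand, Mrps22 and Mrpl52 were wholly specific and also stood under 2 FPKM, and Mrpl24, the most abundant member, had 62.1%. Across the 76 members Pearson's r between log2 mean level and the specific share was 0.350 and Spearman's rho 0.230, as a description over genes of the same 4 libraries. Values of members with little specific sequence are uncertain. Of the 57 tested members with at least 80% specific words, none passed in limma at an adjusted p of 0.05, near the background of 2.74%.

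**Figure D3:**
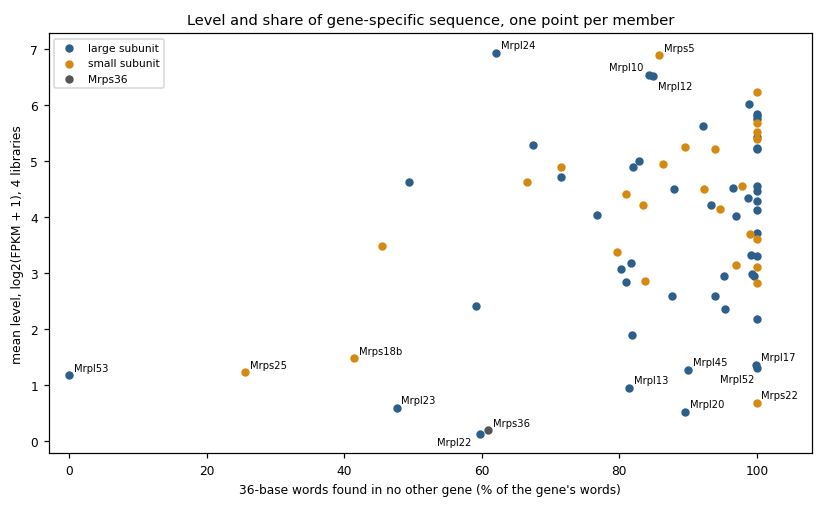
Mean level over the 4 libraries, as log2(FPKM + 1), against the percentage of 36-base words found in no other gene, with 1 point per member coloured by subunit and members under 2 or above 90 FPKM named. Members under 2 FPKM are spread over shares from 0% (Mrpl53) to 100% (Mrps22), and most other members lie above 80%.

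Ribosomal proteins known under other names were examined as a list of 7, all tested. Dap3, the GTP-binding protein of the small subunit, had 17.9 and 17.9 FPKM on the deficient diet and 15.1 and 13.1 FPKM on the normal diet. The other 6 (Ptcd3, Gadd45gip1, Chchd1, Aurkaip1, Ict1 and Mrp63) had lower values in both deficient diet libraries. Among all tested genes 25.5% lay lower in this way, and 56.2% did not overlap in either direction. The list is small, and its direction was not tested. Ptcd3, a small-subunit protein with pentatricopeptide repeats, had 11.93 and 11.98 FPKM against 16.6 and 16.6 FPKM, a log2 change of -0.44, and was named after its value was seen. None passed in limma (2.74% of all tested genes did), 2 had an unadjusted p under 0.05 (22.8% of all tested genes) and the median log2 change was -0.27.

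Genes that serve the mitoribosome were taken as 4 lists. The tested genes were 10 translation factors, 18 mitochondrial aminoacyl-tRNA synthetases, 20 assembly factors and 14 factors of mitochondrial DNA and RNA. None passed in limma, where 2.74% of all tested genes did, so with lists this small it is no result about them. At an unadjusted p under 0.05 limma gave 3, 3, 3 and 0, against 22.8% of all tested genes. Medians were -0.04, 0.12, -0.04 and 0.13. Gfm1, the elongation factor that moves the ribosome along, had 24.3 and 25.3 FPKM against 22.6 and 20.5 FPKM, a log2 change of 0.20. Tufm, the factor that delivers the tRNAs and is abundant in most cells, was listed at 0.385 and 0.104 FPKM against 0.376 and 0.674 FPKM and not tested. Lars2, which charges the mitochondrial leucine tRNA, had 11.2 and 14.5 FPKM against 22.2 and 22.9 FPKM, a log2 change of -0.77 (limma adjusted p = 0.112). The assembly GTPase Noa1 had 14.3 and 7.87 FPKM against 13.1 and 13.6 FPKM, overlapping between diets.

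Transcription of mitochondrial DNA was represented by Polrmt, its RNA polymerase, at 10.7 and 9.12 FPKM against 9.17 and 8.33 FPKM, and by the packaging factor Tfam at 22.7 and 32.5 FPKM against 24.8 and 27.1 FPKM. Among 10 tested nuclear regulators none passed in limma (2.74% of all tested genes did), and 4 had a positive and 6 a negative fitted change. An unadjusted p under 0.05 in limma was found for 2, against 22.8% of all tested genes. E2f1 had 2.11 and 0.0993 FPKM on the deficient diet and 9.88 and 7.655 FPKM on the normal diet. Tfdp1 had 7.72 and 6.72 FPKM against 14.9 and 15.7 FPKM. Their log2 changes were -2.39 and -0.99, with limma adjusted p of 0.0934 and 0.0698. Myc, a driver of ribosome production in activated T cells, had 108.8 and 125.4 FPKM on the deficient diet and 154.7 and 123.9 FPKM on the normal diet, and the diets overlapped. Nrf1, which encodes the factor of the NRF1 motif, had 19.8 and 20.6 FPKM against 15.7 and 16.9 FPKM (log2 change 0.30, limma adjusted p = 0.356). Gabpa had 12.6 and 15.2 FPKM against 14.5 and 13.5 FPKM, with overlap. Yy1, which encodes the factor of the YY1 motif, had 30.4 and 6.405 FPKM against 37.2 and 29.0 FPKM, with overlap. Its log2 change was -1.15 (limma adjusted p = 0.395). Nrf1, Gabpa, Yy1, E2f1 and Tfdp1 were named after their values were seen.

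Nuclear-encoded subunits of the respiratory chain and ATP synthase, which are assembled with the products of mitochondrial translation, summed to 4284 and 4944 FPKM on the deficient diet and 4424 and 4181 FPKM on the normal diet over 90 genes. Of 81 tested, 1 was called lower in limma and none higher, where 2.74% of all tested genes were called. Log2 changes ran from -2.31 to 0.78 with a median of -0.03. An absolute change of at least 1 was reached by 4 (4.94%, against 12.2% of all tested genes). Cytosolic ribosomal proteins, 80 genes, summed to 4340 and 5424 FPKM against 6215 and 5015 FPKM. None of 56 tested passed (2.74% of all tested genes did), and 18 had an unadjusted p under 0.05 in limma (22.8% of all tested genes). Of these 56, 50 had a negative fitted change, and their median was -0.47 against -0.02 for the mitochondrial members. No test of this difference between lists was made. The median level over the 80 genes was 3.425 FPKM, against 16.55 FPKM for the members. How much of their sequence is specific to each gene was not examined, so their values are uncertain.

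**Figure D4:**
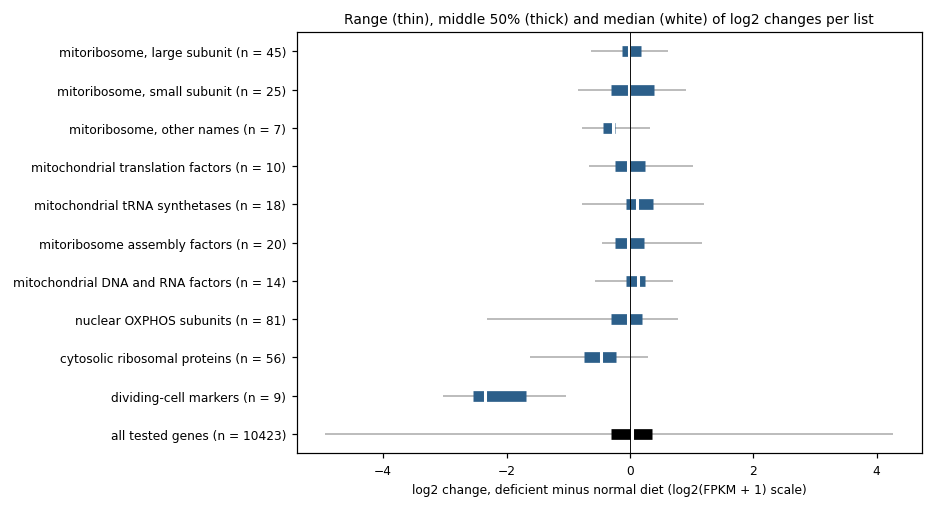
Log2 changes (deficient minus normal diet, log2(FPKM + 1) scale) of the tested genes in each list, with the range as a thin line, the quartiles as a thick bar and the median in white. The large and small subunit members have medians of -0.01 and -0.02, mitoribosomal proteins under other names -0.27, and cytosolic ribosomal proteins -0.47, and dividing-cell markers lie lowest at -2.35.

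Of 9 tested markers of dividing cells 6 passed in limma as lower on the deficient diet, against 1.53% of all tested genes. All 9 lay lower without overlap, against 25.5% of all tested genes. Their sum over 10 markers was 21.0 and 23.4 FPKM on the deficient diet and 152.9 and 187.7 FPKM on the normal diet, and none was listed at 0. The 9 macrophage markers summed to 1324 and 711.8 FPKM against 146.9 and 2088 FPKM, with Clec4f, a marker of Kupffer cells, listed at 0 in normal diet replicate 1. Lyz2 made up most of this sum, at 1197 and 662.7 FPKM against 140.4 and 1934 FPKM. Only Marco did not overlap between diets, at 4.52 and 2.10 FPKM against 0.359 and 0.238 FPKM. That is 11.1% of the list, against 56.2% of all tested genes. The 6 hepatocyte markers summed to 54.0 and 28.0 FPKM against 16.1 and 110.1 FPKM, with Ttr and Apoc3 at 0 in normal diet replicate 1 and Fabp1 at 0 in deficient diet replicate 2. The 4 pancreatic markers summed to 594.2 and 216.0 FPKM against 7485 and 2251 FPKM, all 4 without overlap and 1 called lower in limma. T cell markers summed to 1118 and 1385 FPKM against 1383 and 1051 FPKM. Within this sum the 5 markers went both ways, each without overlap between diets, and none passed in limma. Cd3e and Thy1 lay above on the deficient diet (log2 changes 0.56 and 0.60). Cd3d, Cd3g and Ptprc lay below (-0.24, -0.42 and -0.75). The 4 genes of sorted-out surface proteins stood at 20.2 and 20.8 FPKM against 69.7 and 45.5 FPKM. The part of these cells in the members' values was not tested.

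**Figure D5:**
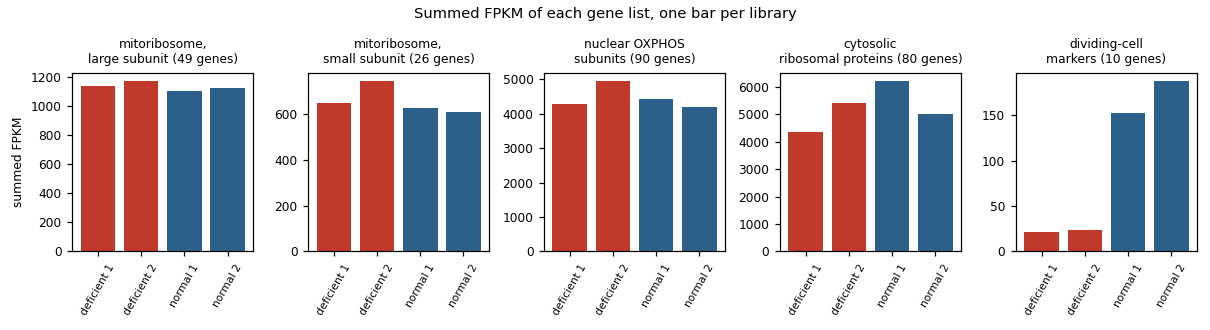
Summed FPKM of 5 gene lists, with 1 bar per library and each axis starting at 0, the deficient diet in red and the normal diet in blue. The large-subunit bars lie between 1103 and 1174 FPKM and the small-subunit bars between 608.8 and 743.6 FPKM, whereas dividing-cell markers stand at 21.0 and 23.4 against 152.9 and 187.7 FPKM.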

How the data were processed

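The deposited table gives gene symbols and 1 value per library. The authors' values were taken as FPKM, a unit that neither table nor labels name, since most are fractions, many under 1, with library sums of 370112 to 389403. Bowtie 0.12.2 and genome build mm8 are named in the submitters' processing notes. For the quantifier and annotation, the entry is: not given in the sources used here. Low values showed no common step between libraries (the commonest ratio held 1.87% to 3.08% of 747 low genes within 0.5%), so read depth is unknown and no count test was run. Columns were matched to libraries by title and grouped by the diet in the labels.

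Genes reaching 1 FPKM in 2 or more libraries were tested as log2(FPKM + 1) with limma 3.58.1 in R 4.3.3 (mean-variance trend, diet as the factor, Benjamini-Hochberg adjustment over 10423 genes, threshold 0.05, 2 residual and 2.84 prior degrees of freedom). Adding 1 FPKM before taking log2 understates changes of low genes. The limma step was tested on simulated data. The rule named called members, the 10 largest differences in each direction among members without overlap, the 5 most abundant and a panel of 10, as well as a panel of 8 related genes. Members, lists and tests were chosen with earlier results of these data known. Promoters are from RefSeq (GRCm38.p6) and transcripts from GENCODE vM21, and no coordinates of the authors' build are given. The alternatives were other pseudocounts, filters, scalings and variance models, a replicate block, an adjusted p of 0.10 and leaving out each library.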

Additional observations from a re-analysis of the deposited data

How the results depend on the processing

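The number of members called in limma was 0 in 11 of the 15 other settings. It was 1, always Mrps5, with an adjusted p of 0.10, a filter of 5 FPKM, quantile normalization or robust empirical Bayes, which was added after seeing the data. Leaving out any 1 library gave 0 members, and 3 to 6 at an unadjusted p under 0.05. The median log2 change of the members moved between -0.03 and 0.015, less than the spread of library medians. The ratio of summed FPKM was 1.03 to 1.11 with 1 library left out and 1.01 without Mrps5 and Mrps28, a choice made after seeing the data. The 286 calls over all genes became 912 at an adjusted p of 0.10, 467 with quantile normalization, 432 with robust empirical Bayes, 141 without the trend and 0 without a filter on low values (2712 at an unadjusted p under 0.05). Over the sets of 3 libraries they ran from 0 to 352. Of 27 named members tested, Mrpl12 and Mrpl24 turned their sign, to -0.01 and 0.08, without deficient diet replicate 2. Leaving out each library in turn gave -0.01 to 0.33 for Mrpl12 and -0.35 to 0.08 for Mrpl24. With these, 13 of the 27 moved by over 1.5 times: Mrpl32 (-0.94 to -0.21), Mrpl48 (-0.90 to -0.37), Mrps23 (-0.56 to -0.12), Mrps12 (-0.59 to -0.26), Mrps15 (-0.52 to -0.20), Mrpl11 (0.25 to 0.75), Mrps30 (0.16 to 0.45), Mrpl3 (0.06 to 0.38), Mrpl41 (0.13 to 0.33), Mrpl10 (0.03 to 0.15) and Mrps18b (from 0.48 upwards). The causes were not tested.

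With the replicate number as a block 0 genes passed (1844 at an unadjusted p under 0.05) and 0 members. Same-numbered libraries deviated in opposite directions (r = -0.284 across tested genes, and -0.0791, near 0, across the 70 tested members), and with the numbers crossed, chosen after seeing the data, 52 genes and 0 members passed. The labels do not say that the numbers pair libraries. There were 2 libraries per diet, and their depth is unknown.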

Other observations

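Some members start near a gene transcribed the other way. The share of such genes over the whole genome was not counted, and a shared promoter was not tested. In RefSeq (GRCm38.p6), 25 members lay head to head with another gene, with starts at most 1000 bases apart, in 24 pairs. Both genes were tested in 22 pairs, with Twnk found under its older symbol Peo1, and Pearson's r between their log2 changes was 0.179, a weak value given as a description over pairs of the same 4 libraries. None of the neighbours in these pairs passed in limma at an adjusted p of 0.05. Among all tested genes 2.74% did, so this is near the background and no result about neighbours. Mrps5 had a log2 change of 0.91 and its neighbour Zfp661, whose start is 332 bases away, 0.09. Mrpl2 and Klc4 had 0.61 and -0.05, Mrps12 and Sars2 -0.43 and -0.05, and Mrps7 and Gga3 0.51 and 0.46. Mrpl51 had -0.12, while its neighbour Ncapd2, a condensin subunit of dividing cells, had 3.603 and 3.403 FPKM on the deficient diet and 15.05 and 10.4 FPKM on the normal diet, a log2 change of -1.59 (limma adjusted p = 0.054). The pair made of 2 members, Mrpl46 and Mrps11, had 0.03 and -0.03.

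Several genes of mitochondrial translation outside the family had larger fitted changes than any tested member on the log2(FPKM + 1) scale, and none passed. On the plain ratio this order does not hold, as Mrps18b exceeds Mtg1 and the untested Mrps22 lay further apart. The 4 genes given here were chosen after their values were seen. Guf1, a ribosome-bound GTPase, had 6.41 and 5.55 FPKM on the deficient diet and 2.60 and 2.27 FPKM on the normal diet. Vars2, which charges the mitochondrial valine tRNA, had 5.62 and 5.31 FPKM against 1.68 and 1.94 FPKM. The assembly factors Mtg1 and Mrm1 had 37.8 and 39.4 FPKM against 19.8 and 16.4 FPKM, and 20.9 and 25.5 FPKM against 10.1 and 9.33 FPKM. Their libraries did not overlap between diets, with log2 changes of 1.02, 1.20, 1.06 and 1.17 for Guf1, Vars2, Mtg1 and Mrm1 and limma adjusted p of 0.0955, 0.0723, 0.0540 and 0.0540.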
